A study of Zea mays with 24 samples.

Results

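The 7 maize genes described here encode enzymes of jasmonate synthesis and were chosen by their identifiers, 7 of the 46430 features counted in every library. They are *lox8* (Zm00001d003533, also called *tasselseed1*), *lox9* (Zm00001d027893), *lox10* (Zm00001d053675), *aos* (Zm00001d034186), *aoc1* (Zm00001d029594), *opr7* (Zm00001d032049) and *opr8* (Zm00001d050107). The count tables do not pair identifiers with names, so the symbols are those that came with the choice of genes. A RefSeq table of maize genes lists several allene oxide synthase genes, and which of them Zm00001d034186 is was not checked here.

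RNA of maize (Zea mays) endosperm, the storage tissue of the kernel, was sampled at 15 days after pollination in 24 libraries of 8 groups with 3 libraries each. Each library came from 5 to 10 pooled endosperms, and nothing in the labels says that the libraries of a group are of separate plants. The p-values therefore cover no more than the variation among these libraries, and that variation may be technical. MP3RNA-seq, the method named in the labels, is known as a method that sequences the ends of transcripts. In bulk tissue, fewer cells of a type and less RNA per cell cannot be told apart.

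In the genotype experiment a ZmICE1a mutant was set against wild type, both labelled as control for treatment. ZmICE1a is a maize relative of ICE1, a bHLH transcription factor known from cold responses of Arabidopsis. The sources used here do not state the kind of mutant allele. In the IAA experiment wild type treated with IAA, an auxin, was set against untreated wild type. The JA experiment held mutant with JA, wild type without JA and 2 groups whose labels disagree, called group P and group Q here. Hormone doses and times are likewise not stated.

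Group P is titled wild type with JA, its genotype and stage fields read mutant, and its treatment field reads JA-treated. Group Q is titled mutant without JA, its genotype and stage fields read wild type, and its treatment field reads untreated. The title and the genotype field thus disagree for 6 libraries. The names of the count tables give a further reading, in which P is mutant without JA and Q is wild type with JA. By title the difference between P and wild type without JA is a JA response, and by table name it is an effect of the mutant. The difference between Q and wild type without JA is an effect of the mutant by title and a JA response by table name. By the fields alone P would be a second set of mutant with JA and Q a second set of wild type without JA.

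Jasmonate is made from linolenic acid. Lipoxygenases of the plastid oxidise the fatty acid, allene oxide synthase and allene oxide cyclase turn the product into OPDA (oxo-phytodienoic acid), and an OPDA reductase of the peroxisome acts before the chain is shortened to jasmonic acid. In Arabidopsis, jasmonate raises transcripts of several of its own synthesis genes. In maize, loss of *lox8*, or of *opr7* and *opr8* together, leaves female organs in the tassel.

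Per library the genotype experiment had 3109928 to 4875478 counts in total, the IAA experiment 432016 to 959735 and the JA experiment 839322 to 1917363. Features with ENSRNA identifiers held 3.33% to 10.7% of the total in group P, 2.02% to 3.44% in mutant with JA, 2.19% to 2.77% in group Q and 1.13% to 3.61% in wild type without JA. In the RefSeq list 0 of the 44146 nuclear gene models of the files could be matched. The level of ZmICE1a, the endosperm markers and the other genes of the jasmonate pathway are therefore not given, and the labelled tissue was not checked against markers.

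Levels are given as CPM, each library's counts rescaled to a common total, on library sizes scaled over all 24 libraries, and a level is compared between groups but not between genes. Of the 7 genes, 6 passed the low-count filter in the genotype experiment (all but *aos*), 1 in the IAA experiment (*aoc1*) and 3 in the JA experiment (*lox8*, *aoc1* and *opr8*). Genes that did not pass are described by their counts.

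**Figure D1:**
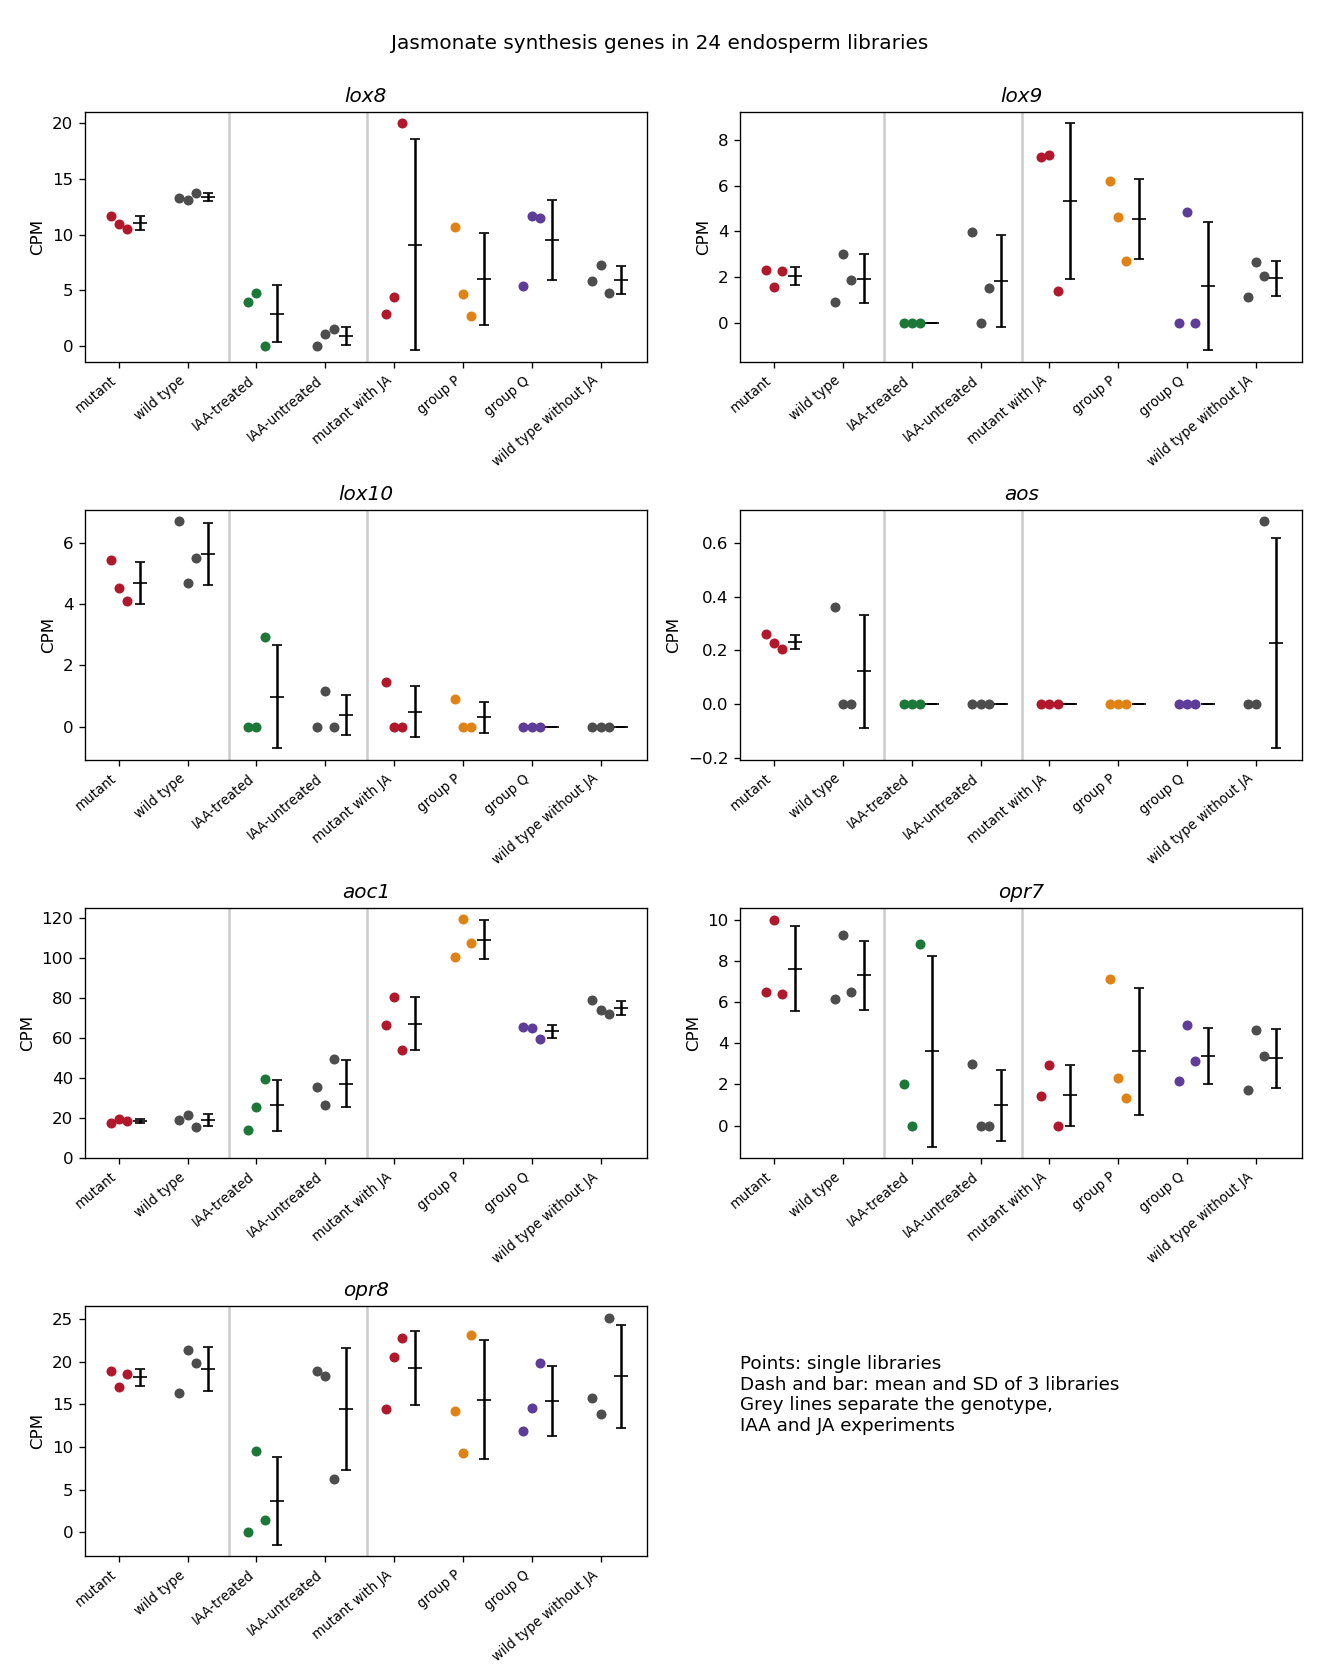
Level (CPM, vertical axis, linear and on a scale of its own for each gene) of the 7 genes in the 8 groups along the horizontal axis; points are single libraries, and the dash and bar beside them are the mean and SD of 3 libraries. The 3 *aoc1* points of group P, at 100.4 to 119.7 CPM, lie above those of every other group, and *lox10* stands clear of 0 in every library only in the genotype experiment.

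The gene called in the JA experiment was *aoc1*, the allene oxide cyclase that forms OPDA. It stood at 100.4, 119.7 and 107.5 CPM in group P, against 79.1, 74.2 and 72.1 CPM in wild type without JA. All libraries of P lay above all of wild type without JA. The log2 fold change of *aoc1* was 0.53 ± 0.13 (SE, 1.45-fold, 3 libraries per group), which passed the test over all genes (edgeR's quasi-likelihood test, p adjusted by Benjamini-Hochberg = 0.0332). It was the 1 gene called higher among the 3 tested, and 2.74% of all 11265 features tested were called higher in the same comparison. Libraries that lay wholly higher in P were found for 11% of the 14839 features that passed the low-count filter over all 24 libraries. Each share of features lying wholly apart is over these 14839. They hold *lox8*, *aoc1*, *opr7* and *opr8*, but not *lox9*, *lox10* or *aos*.

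That call for *aoc1* was lost without each of the 6 libraries in turn, with edgeR adjusted p from 0.0577 to 0.12, while the log2 fold change stayed between 0.46 and 0.59. It was also lost without the low-count filter (edgeR adjusted p = 0.157), where the log2 fold change was 0.49.

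In mutant with JA *aoc1* stood at 66.5, 80.8 and 54.1 CPM, below all 3 libraries of group P. The log2 fold change of mutant with JA against P was −0.68 ± 0.14 (SE, 0.622-fold, edgeR adjusted p = 0.0137). It was the 1 gene called lower of 3 tested, against 1.61% of all features, and 9.23% of all features lay wholly lower in mutant with JA. By title this is an effect of the mutant under JA, by table name it is the JA response of the mutant, and by the fields alone these would be a single group. The call was lost without mutant with JA replicate 1 (edgeR adjusted p = 0.0501), mutant with JA replicate 3 (0.0641) or P replicate 2 (0.0607), and in a fit of these 6 libraries alone (0.0762).

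Group Q held *aoc1* at 65.5, 65.1 and 59.6 CPM, below every library of wild type without JA, as did 9.58% of all features. The log2 fold change of Q against wild type without JA was −0.24 ± 0.14 (SE), with a 95% interval from −0.53 to 0.06, and did not pass (edgeR adjusted p = 0.487). In that comparison edgeR and DESeq2 each called 0 of the 3 genes, 0 had an unadjusted p under 0.05 in edgeR, and 2.73% of all features were called by edgeR. DESeq2 left *lox8* without an adjusted p here, so that its count of 0 rests on *aoc1* and *opr8*. Mutant with JA overlapped Q for *aoc1* (log2 fold change 0.09 ± 0.15, interval −0.23 to 0.40), and 2.91% of all features were called between these groups. Mutant with JA also overlapped wild type without JA (−0.15 ± 0.14, interval −0.45 to 0.15), where 10.2% of all features were called. In both comparisons edgeR and DESeq2 each called 0 of the 3 genes, and 0 had an unadjusted p under 0.05 in edgeR. Against Q, DESeq2 gave an adjusted p for *aoc1* only.

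The ENSRNA share was highest in group P, the group with the highest *aoc1* level, and its part in the result was not tested. P replicate 1 held 10.7% ENSRNA counts at 100.4 CPM of *aoc1*, and P replicate 2 held 6.84% at 119.7 CPM. P replicate 3, with 3.33% inside the range of the other groups, had 107.5 CPM. When ENSRNA features were removed before the fit, the log2 fold change of *aoc1* in P against wild type without JA was again 0.53 (edgeR adjusted p = 0.0118). With P replicate 3 as its only library it was 0.51, and the call was lost (edgeR adjusted p = 0.288). This alternative was chosen after seeing the data, and it assumes that the lone library varies like the other groups.

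**Figure D2:**
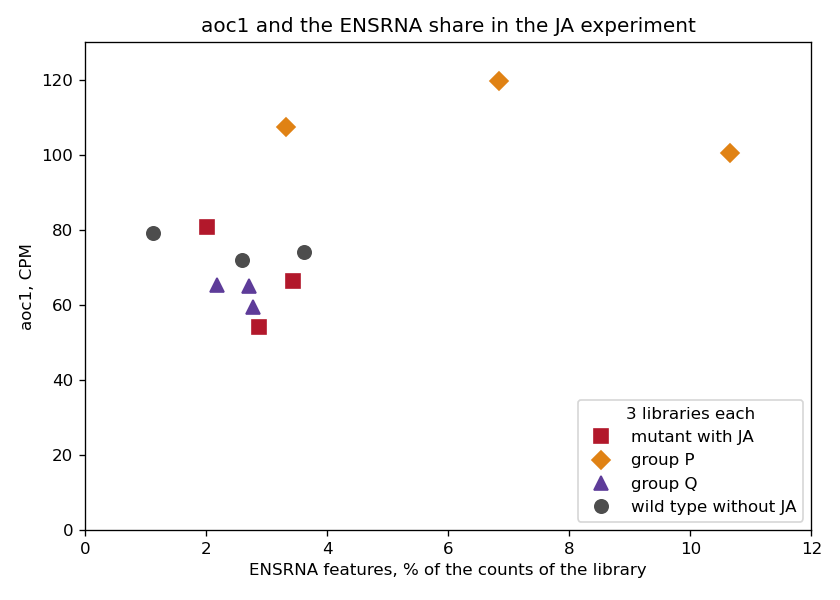
Level of *aoc1* (CPM, vertical axis from 0) against the share of counts in ENSRNA features (percent, horizontal axis) for the 12 libraries of the JA experiment, 3 per group. The group P library at 3.33% ENSRNA counts had 107.5 CPM of *aoc1*, above the 54.1 to 80.8 CPM of the 9 libraries of the other groups.

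Averaged over pairs of groups, *aoc1* was lower in Q and mutant with JA than in P and wild type without JA, with a log2 difference of −0.46 ± 0.10 (SE, edgeR adjusted p = 0.0117). This is the average effect of the mutant by title and the average effect of JA by table name, and 2.12% of all features were called lower in it. That call was lost with P replicate 3 as the only library of its group (−0.45, edgeR adjusted p = 0.0915). The other average, P and mutant with JA against Q and wild type without JA, gave 0.31 ± 0.10 and did not pass (edgeR adjusted p = 0.0707), with 8.39% of all features called. For it edgeR and DESeq2 each called 0 of the 3 genes, and in edgeR 1 was under 0.05 before adjustment. Without mutant with JA replicate 3 it was 0.37 and passed (edgeR adjusted p = 0.0286). These comparisons use the same 12 libraries and are not independent of each other.

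The non-additive contrast, which asks whether the effect of one factor differs between levels of the other, has the same value by title and by table name. For *aoc1* it was −0.45 ± 0.20 (SE, interval −0.87 to −0.02), with an unadjusted p = 0.0409 and an adjusted p = 0.423 in edgeR. Here edgeR and DESeq2 each called 0 of the 3 genes, 1 of them had an unadjusted p under 0.05 in edgeR, and edgeR called 0.63% of all features. DESeq2 gave an adjusted p for *aoc1* only in this contrast as well. For *lox8* the contrast was −0.18 ± 0.86 (SE, interval −2.01 to 1.65) and for *opr8* 0.59 ± 0.51 (SE, interval −0.50 to 1.67).

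The genotype experiment gave an estimate of the effect of the mutant on *aoc1*, near 0, from libraries with no disagreement of labels. The levels were 17.4, 19.6 and 18.3 CPM in the mutant, against 19.0, 21.7 and 15.6 CPM in wild type. The groups overlapped, with a log2 fold change of −0.01 ± 0.13 (SE, interval −0.30 to 0.27, edgeR adjusted p = 0.976). Set beside it, the effect of the mutant without JA would be 0.53 by table name (P against wild type without JA) and −0.24 by title (Q against wild type without JA).

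The difference between these effects was tested in 1 fit of 24 libraries. The effect in P minus that in the genotype experiment was 0.57 ± 0.26 for *aoc1* (SE, unadjusted p = 0.0419, edgeR adjusted p = 0.474), and the effect in Q minus it was −0.21 ± 0.27 (edgeR adjusted p = 0.911). Of 4 genes tested, edgeR and DESeq2 each called 0 in either test, DESeq2 with no adjusted p for *lox8* and *opr7*. In edgeR 1 had an unadjusted p under 0.05 in the first test and 0 in the second, and 0.93% and 0.91% of all 14839 features were called. The readings by title and by table name were not told apart by these tests. The reading by the fields alone was not covered by them.

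**Figure D3:**
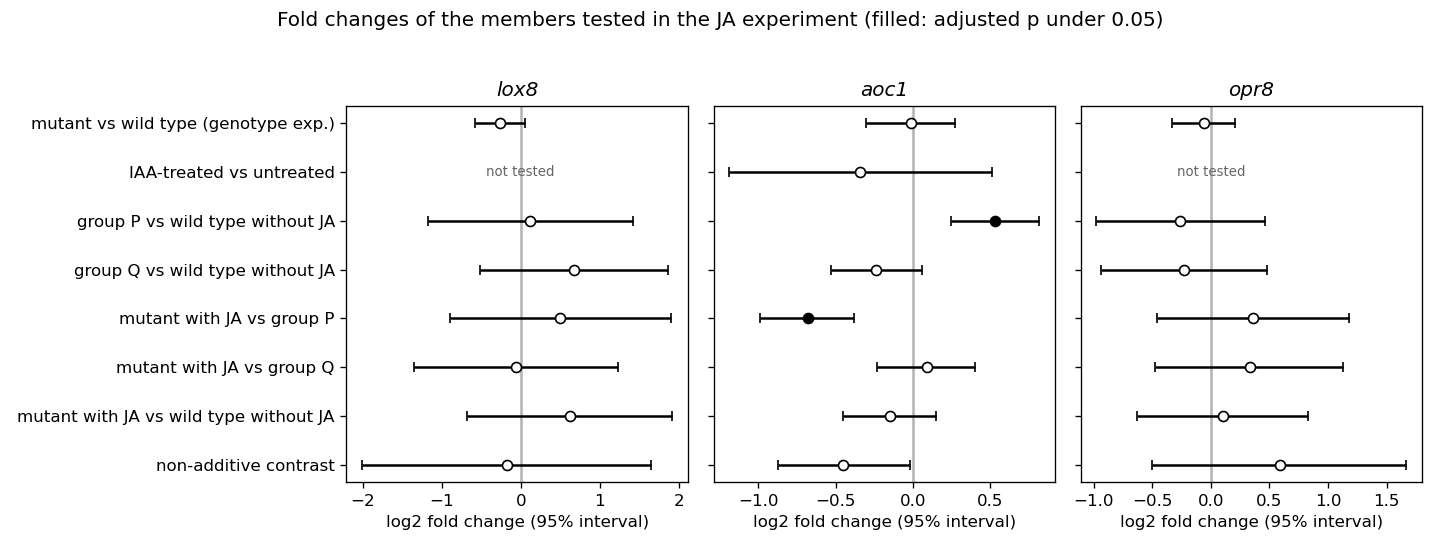
Log2 fold change (horizontal axis, each panel on its own scale) with its 95% interval for *lox8*, *aoc1* and *opr8* in 8 comparisons listed down the vertical axis, with the group on the right of "vs" as the base; filled points passed at an adjusted p under 0.05. The filled points are *aoc1* in group P against wild type without JA (0.53) and in mutant with JA against group P (−0.68), and the interval of *aoc1* in the genotype experiment, −0.30 to 0.27, spans 0.

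Among the lipoxygenases, *lox8* was lower in the mutant of the genotype experiment in every library, without passing the test over all genes. It stood at 11.7, 10.9 and 10.5 CPM in the mutant, against 13.2, 13.1 and 13.7 CPM in wild type. The log2 fold change was −0.26 ± 0.15 (SE, 0.834-fold, interval −0.58 to 0.06, edgeR adjusted p = 0.372). It was the 1 of 7 genes whose libraries lay wholly lower in the mutant. It is 1 of the 4 genes among the 14839 features, of which 13.5% did so.

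In the JA experiment *lox8* rested on few counts, 19 in mutant with JA, 18 in P, 28 in Q and 28 in wild type without JA over 3 libraries each. Its level was 2.89, 4.41 and 19.9 CPM in mutant with JA, 10.7, 4.65 and 2.72 CPM in P, 5.37, 11.7 and 11.5 CPM in Q, and 5.81, 7.28 and 4.76 CPM in wild type without JA. Mutant with JA replicate 3 stood apart from the rest of its group, and all 4 groups overlapped. The log2 fold change was 0.68 ± 0.56 in Q (interval −0.51 to 1.87) and 0.12 ± 0.61 in P (interval −1.18 to 1.42), each against wild type without JA, and neither passed. The direction in P rested on P replicate 1, without which the log2 fold change of *lox8* was −0.66 (edgeR adjusted p = 0.741), and with P replicate 3 alone it was −1.11 (0.746). Without mutant with JA replicate 3 its difference from Q was −1.37 on the log2 scale (edgeR adjusted p = 0.411), against −0.06 with all libraries. The non-additive contrast of *lox8* was −1.48 without that library and 0.60 without P replicate 1, against −0.18 with all libraries.

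The lipoxygenase gene *lox9* did not pass the low-count filter in the JA experiment. It had 5, 5 and 1 counts in mutant with JA and 7, 4 and 2 in P, against 0, 5 and 0 in Q and 2, 4 and 3 in wild type without JA. Its CPM in P, 2.72 to 6.22, lay just above the 1.16 to 2.65 of wild type without JA. Besides *aoc1*, *lox9* was the other gene of the 7 with all libraries of P higher than wild type without JA. Of the 14839 features of the 24-library filter 11% lay so, and *lox9* is not among them. The separation of *lox9* rests on P replicate 3, with 2 counts. Pooled, mutant with JA and P held 24 counts against 14 in Q and wild type without JA, a 2.69-fold ratio of their shares of the total (exact 95% interval 1.34 to 5.63, which like all such intervals and floors here covers counting error only). Fitted without the filter, this average had a log2 difference of 1.37 ± 0.59 (SE, edgeR adjusted p = 0.251). By title it follows JA, by table name the mutant. In the genotype experiment *lox9* had a log2 fold change of 0.08 ± 0.43 between mutant and wild type (interval −0.81 to 0.97), at 2.06 ± 0.409 CPM in the mutant and 1.95 ± 1.06 CPM in wild type (SD, n = 3 each).

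The gene *lox10*, whose lipoxygenase is known for green leaf volatiles in maize leaves, was counted in every library of the genotype experiment. It stood at 5.44, 4.55 and 4.11 CPM in the mutant, against 6.71, 4.70 and 5.53 CPM in wild type, with a log2 fold change of −0.25 ± 0.24 (SE, edgeR adjusted p = 0.635). The other experiments held 5 counts of *lox10* in all, 2 in IAA-treated, 1 in IAA-untreated, 1 in mutant with JA and 1 in P. Group Q and wild type without JA held 0, which allows up to 0.811 CPM in Q and 0.564 CPM in wild type without JA, set at 3 counts over the group and taken on unscaled totals as for every such limit here.

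Allene oxide synthase stands before the cyclase in the pathway. The feature named *aos* had 1, 1 and 1 counts in the mutant and 2, 0 and 0 in wild type of the genotype experiment, and 1 count in all in the other experiments, in wild type without JA. With 3 counts over the group as the limit, its 0 counts in mutant with JA allow up to 1.17 CPM and those in group P up to 0.942 CPM. A difference between groups was not detectable at this depth.

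The OPDA reductases *opr7* and *opr8* are a duplicated pair of near-identical sequence. The sources used here do not state how reads that match both were counted, so the split between them is uncertain. In the genotype experiment *opr7* stood at 6.48, 10.0 and 6.38 CPM in the mutant, against 6.17, 9.24 and 6.48 CPM in wild type (log2 fold change 0.07 ± 0.23 SE, edgeR adjusted p = 0.912). For *opr8* the levels were 18.9, 17.1 and 18.5 CPM in the mutant, against 16.3, 21.3 and 19.8 CPM in wild type (−0.06 ± 0.13, edgeR adjusted p = 0.861). Both genes overlapped between the groups.

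In the JA experiment *opr8* stood at 14.5, 20.6 and 22.8 CPM in mutant with JA, 14.2, 9.30 and 23.1 CPM in P, 11.8, 14.6 and 19.9 CPM in Q, and 15.7, 13.9 and 25.2 CPM in wild type without JA. All 4 groups overlapped. The log2 fold change of *opr8* was −0.26 ± 0.34 in P (interval −0.98 to 0.46) and −0.23 ± 0.33 in Q (interval −0.94 to 0.48), each against wild type without JA. With P replicate 3 as the only library of its group, *opr8* in P was at 0.34 (edgeR adjusted p = 0.795). Its reductase partner *opr7* had 3 counts in mutant with JA, 11 in P, 10 in Q and 15 in wild type without JA. Pooled as shares of the total, mutant with JA held *opr7* at 0.416-fold of wild type without JA (exact 95% interval 0.0772 to 1.47).

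After IAA, *aoc1* was the single gene of the 7 that could be tested. It stood at 13.96, 25.4 and 39.6 CPM in IAA-treated wild type, against 35.7, 26.4 and 49.5 CPM in untreated wild type. The groups overlapped, with a log2 fold change of −0.34 ± 0.40 (SE, interval −1.19 to 0.51, edgeR adjusted p = 0.761). It was not called by edgeR or DESeq2, and its unadjusted p was 0.401 in edgeR, while 2.42% of all 7687 features were called.

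Counts of *opr8* were 0, 6 and 1 in IAA-treated wild type, against 19, 16 and 4 in untreated wild type. IAA-treated replicate 2, at 9.51 CPM, lay above untreated replicate 3, at 6.18 CPM, so the groups overlapped. The pooled ratio of IAA-treated to untreated was 0.268 (exact 95% interval 0.101 to 0.607). Fitted without the filter, the log2 fold change of *opr8* was −1.91 ± 0.79 (SE, unadjusted p = 0.0151, edgeR adjusted p = 0.409), which did not pass. For *lox9* the IAA-treated libraries held 0 counts, which allows up to 1.87 CPM, against 5 counts in untreated wild type.

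In the genotype experiment edgeR and DESeq2 each called 0 of the 6 genes tested, and 0 had an unadjusted p under 0.05 in edgeR, against 6.19% of all 17841 features called by edgeR. The median log2 fold change of the 6 was −0.04, with 2 of 6 positive, and the median over all features tested was 0. The widest interval belonged to *lox9* and the narrowest to *opr8*, from −0.33 to 0.21.

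Levels of several of the genes stood apart between experiments. In untreated wild type, *lox8*, *lox10* and *opr7* were higher in every library of the genotype experiment than in every library of the JA and of the IAA experiment. For *lox8* the group means were 13.4 ± 0.325 CPM in wild type of the genotype experiment, 5.95 ± 1.27 CPM in wild type without JA and 0.898 ± 0.803 CPM in IAA-untreated wild type (SD, n = 3 each). For *opr7* they were 7.29 ± 1.69 CPM in wild type of the genotype experiment, 3.26 ± 1.45 CPM in wild type without JA and 0.993 ± 1.72 CPM in IAA-untreated wild type. These were 3 of 7 genes, of which *lox8* and *opr7* are among the 14839 features behind the shares and *lox10* is not. Of those features 37.8% lay higher without overlap in each of the 2 comparisons, so such shifts were common in these libraries. Between the shallower experiments, *lox8* and *aoc1* were higher in every library of wild type without JA than of IAA-untreated wild type. They were 2 of the 4 genes among the 14839 features, of which 28.3% did so. Experiment, depth and anything else that differs between the experiments cannot be told apart.

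For *lox10* wild type of the genotype experiment held 94 counts and wild type without JA held 0 of 5319848 counts. With 3 counts over the group in place of 0, the ratio on unscaled totals was 12.1. The exact 95% interval of the ratio began at 9.61. Against IAA-untreated wild type, with 1 count, the ratio was 16.3 (exact 95% interval 2.85 to 650.0). The opposite order was seen for *aoc1*, at 18.8 ± 3.03 CPM in wild type of the genotype experiment, 75.1 ± 3.59 CPM in wild type without JA and 37.2 ± 11.6 CPM in IAA-untreated wild type (SD, n = 3 each). It was the 1 gene of the 7 that lay lower in the genotype experiment without overlap. It is 1 of the 4 genes among the 14839 features, of which 33.9% did so against wild type without JA and 30.2% against IAA-untreated wild type. Without scaling, *aoc1* averaged 22.7 CPM in wild type of the genotype experiment, 66.4 CPM in wild type without JA and 39.3 CPM in IAA-untreated wild type. For *opr8* the libraries of these groups were not wholly apart in any pair, with means of 19.2 ± 2.57 CPM in wild type of the genotype experiment, 18.3 ± 6.04 CPM in wild type without JA and 14.5 ± 7.18 CPM in IAA-untreated wild type.

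Ordered by mean over all 8 groups, *aoc1* ran from P (109 CPM) through wild type without JA, mutant with JA, Q, IAA-untreated and IAA-treated wild type to wild type (18.8 CPM) and mutant (18.4 CPM) of the genotype experiment. Neighbours in that order overlapped except P with wild type without JA and Q with IAA-untreated wild type. For *lox8* wild type of the genotype experiment was first and did not overlap the mutant that followed it. Wild type without JA, with a lowest library of 4.759 CPM, was just clear of IAA-treated wild type, with a highest of 4.757 CPM, and the other 5 of 7 pairs of neighbours overlapped for *lox8*. For *lox9* the order began with mutant with JA and P, and P did not overlap the mutant of the genotype experiment behind it. For *lox10* the step was between the mutant of the genotype experiment (4.70 CPM) and IAA-treated wild type (0.979 CPM). All neighbours overlapped for *aos*, *opr7* and *opr8*.

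Correlation was computed for *lox8*, *aoc1* and *opr8* only, so whether the genes of the pathway share a pattern over the libraries was not tested. Some libraries held few counts, with 2, 3 and 0 of *lox8* and 0, 6 and 1 of *opr8* in IAA-treated wild type. At such counts, counting error alone can shift a correlation. On log2(CPM + 1) values centred within each experiment, Pearson's correlation over 24 libraries was −0.56 between *lox8* and *aoc1*, −0.15 between *lox8* and *opr8* and 0.25 between *aoc1* and *opr8*, the 3 genes with a mean of at least 5 CPM. Among 13763 other features at that level the one most like *aoc1* was Zm00001d024408 (r = 0.85), and those most like *lox8* and *opr8* were Zm00001d037590 (r = 0.80) and Zm00001d041945 (r = 0.91). Within the genotype experiment, with the deepest libraries, r was 0.22 for the *aoc1* pair, 0.63 for the *lox8* pair and 0.54 for the *opr8* pair, the lowest of the 3 experiments for each. Within the JA experiment the same pairs had r of 0.77, 0.74 and 0.64, and within the IAA experiment, with the shallowest libraries, 0.94, 0.86 and 0.99. The features second most like *aoc1*, *lox8* and *opr8* were Zm00001d049592 (r = 0.84), Zm00001d042191 (r = 0.78) and Zm00001d011286 (r = 0.90). Within the genotype experiment their r was −0.27, −0.58 and −0.13, so these likenesses were not seen there. Those values rest on 6 libraries and were not tested. Each of these features was picked for its high r over these same 24 libraries, which by itself raises r. The values within single experiments come from the same libraries and are no separate check. The points of a pair share library, depth and scaling, and the values are descriptions of these libraries.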

How the data were processed

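The authors deposited raw counts, 1 table of whole numbers for each library, which were used unchanged. The submitters' processing notes name the tools Trimmomatic 0.39 and HISAT2 2.2.1. For the counting program, genome build, annotation, use of strand and treatment of duplicate reads the sources used here state nothing. The lox, aos, aoc and opr members and the lists were chosen with earlier results of these data known. Groups follow the sample titles, with P and Q named neutrally.

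Tests used edgeR 4.0.16 in R 4.3.3 on counts, with TMM scaling, filterByExpr at a minimum count of 10, quasi-likelihood fits, 2-sided tests and Benjamini-Hochberg adjustment over all features tested (17841, 7687, 11265 and 14839 in the genotype, IAA, JA and 24-library fits). A gene was called at an adjusted p under 0.05. SEs were derived from the F statistic as the size of the log2 fold change over the root of F, and 95% intervals use the residual and prior degrees of freedom. Levels are CPM on TMM library sizes over 24 libraries. Pooled ratios compare shares of total counts with exact binomial intervals. The steps were tested on simulated data. Over 24 pairs of libraries within groups the chi-square statistic per degree of freedom was 1.76 to 6.44, so none was a copy. The naming rule took all 7 genes, and the 2 most similar features for each gene with a mean of at least 5 CPM. The lists of endosperm, basal transfer layer, aleurone, embryo, pericarp and other jasmonate genes had 0 matched members. Alternatives were DESeq2 1.42.0, RLE scaling, other filters, ENSRNA features left out, library sizes without the 50 most abundant features, each library left out, a replicate block and fits of 2 groups.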

Additional observations from a re-analysis of the deposited data

How the results depend on the processing

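Of 619 member fold changes recomputed under an alternative, 0 that were called in either fit changed sign, and 60 called in neither did. The number of genes called in P against wild type without JA, 1 of 3, became 0 without the low-count filter and 0 with the 2 group P libraries of high ENSRNA share left out, and ran from 0 to 0 with each library left out. That in mutant with JA against P, also 1, became 0 in a fit of those 2 groups alone and 0 with the 2 group P libraries left out, and ran from 0 to 1 with each library left out. That in Q and mutant with JA against P and wild type without JA, 1, became 0 with the 2 group P libraries left out, and kept its value of 1 with each library left out. The other average had 0 called, and 0 to 1 with each library left out. Each of these changes is *aoc1* crossing the threshold, and the cause was not tested. The counts of the other comparisons, and all counts under DESeq2, RLE scaling, ENSRNA features left out and library sizes without the 50 most abundant features, were as reported. DESeq2 gave no adjusted p for *lox8* in all but 2 comparisons that include the JA experiment, nor for *opr7* or *opr8* in some, and these are not counted as assessed.

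The replicate block changed 0 counts of genes called. For *aoc1* in P against wild type without JA it gave 0.53 (edgeR adjusted p = 0.0417), and in mutant with JA against P −0.69 (0.0174). No clear sign was seen that the numbers pair the libraries, which does not exclude a pairing. Deviations of same-numbered libraries correlated at −0.089 to −0.022 in the genotype, −0.037 to 0.039 in the IAA and −0.087 to 0.1 in the JA experiment. The best match had the same number in 0 of 6, 3 of 6 and 9 of 36 cases.

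Of 112 levels recomputed without scaling or with scaling within each experiment, 26 moved by more than 1 SD. Low counts kept *aos* from being tested in every experiment. They did the same for *lox9*, *lox10* and *opr7* in the fits of the IAA and JA experiments, and for *lox8* and *opr8* in that of the IAA experiment.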
